A study of Mus musculus with 20 samples.

Results

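The nuclear genes for the subunits of the respiratory chain and of the ATP synthase are described here in mouse myeloid progenitors with floxed or wild-type Rptor alleles. They were chosen by symbol: Nduf genes for complex I, Sdh genes for complex II, Uqcr genes for complex III, Cox4 to Cox8 genes for complex IV and Atp5 genes for complex V. Of 22180 genes with a probe set of their own on the array, 80 matched, and where a gene had several probe sets the brightest on average was used. Complex I had 33 of them, complex II 4, complex III 8, complex IV 17 and complex V 18. The 80 comprise 78 protein-coding genes and 2 pseudogenes, Atp5c1-ps and Uqcrh-ps1.

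The respiratory chain passes electrons from NADH and succinate to oxygen through complexes I to IV, and the proton gradient that complexes I, III and IV build drives ATP synthesis by complex V. Most subunits are encoded in the nucleus and imported, and a few core subunits are encoded by mitochondrial DNA. The kinase complex mTORC1, whose scaffold protein Raptor is the product of Rptor, is known to promote mitochondrial gene expression and the translation of mRNAs for mitochondrial proteins. A change in translation would not appear in RNA measurements such as these.

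RNA was measured on 20 single-channel arrays of bone marrow cells from female mice on a C57BL/6 background. Rptor here stands for mice of the genotype CreER-Rptor-flox/flox, whose Rptor alleles are flanked by loxP sites beside a tamoxifen-inducible Cre, and WT for wild-type mice. The labels used here say neither whether and when Cre was induced nor whether WT mice carried it. Lineage-negative (Lin-) marrow cells, which lack the surface markers of mature lineages, were cultured with 10 ng/ml of the macrophage growth factor M-CSF for 12 h and measured on 4 Rptor and 4 WT arrays. Granulocyte-macrophage progenitors (GMPs) and common myeloid progenitors (CMPs) were measured straight from the sort, each on 3 Rptor and 3 WT arrays. Subunit RNA is compared by genotype within each population and between populations in WT cells. Whether each array represents its own animal is not stated in the labels, and p-values measure the spread between these arrays only. In bulk samples, fewer cells of a type and less RNA per cell cannot be told apart.

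All values are log2 array signals, so a difference of 1 is a doubling, and levels are not compared between genes because probes differ in brightness. Differences were tested with limma across 16638 genes, and a gene is called at a Benjamini-Hochberg adjusted p under 0.05. Where a called gene is said not to overlap between groups, this describes the arrays that gave the call and adds no separate support. A filter on dim genes (mean log2 signal of at least 3.86) left 76 of the 80 genes. The pseudogenes Uqcrh-ps1 and Atp5c1-ps and the testis-restricted isoforms Cox7b2 and Cox8c were too dim to be tested. The array median lay between 4.76 and 4.91, and arrays of a group correlated at 0.978 to 0.993 across probe sets. Rptor itself was not called lower in any population. Its signal was 6.92, 6.98, 7.06 and 6.83 in Rptor Lin- cells, against 7.05, 6.95, 7.34 and 7.17 in WT Lin- cells. It was 9.25, 9.24 and 8.85 in Rptor GMPs, against 9.25, 9.17 and 9.44 in WT GMPs. It was 8.20, 8.37 and 8.45 in Rptor CMPs, against 8.72, 8.51 and 8.68 in WT CMPs. The arrays overlapped in Lin- cells and GMPs and not in CMPs. Two-sided exact permutation tests gave p = 0.143 in Lin- cells (smallest possible 0.0286), 0.5 in GMPs and 0.1 in CMPs (smallest possible 0.1). Where the Rptor probes lie relative to the floxed part was not looked up here, so it is not known whether these probes check the labels.

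Several marker groups held genes called by genotype. Csf1r, the M-CSF receptor, was called lower in Rptor than in WT cells of each population (limma), with means of 8.52 and 9.91 in Rptor and WT Lin- cells, 7.28 and 9.48 in Rptor and WT GMPs and 7.33 and 8.84 in Rptor and WT CMPs. Kit, the stem cell factor receptor of progenitors, was higher on every Rptor than on every WT array within each population. Its means were 9.93 and 8.94 in Rptor and WT Lin- cells, 11.05 and 10.76 in GMPs and 11.143 and 10.725 in CMPs. Cd34, another progenitor gene, had means of 9.946 and 10.075 in Rptor and WT Lin- cells. In GMPs they were 8.89 and 10.26, and in CMPs 9.57 and 10.65. Mpo, a granule enzyme of granulocyte precursors, averaged 12.28 and 12.10 in Lin- cells, 12.84 and 12.85 in GMPs and 12.32 and 12.64 in CMPs. Erythroid markers were higher in Rptor cells: 14 of 18 were called higher in Lin- cells, 6 in GMPs and 14 in CMPs, and 0 lower in each. Their mean signal per array was 6.22 to 6.88 in Rptor and 5.51 to 5.73 in WT Lin- cells, 5.91 to 6.71 in Rptor and 5.42 to 5.55 in WT GMPs, and 8.59 to 9.35 in Rptor and 7.69 to 7.87 in WT CMPs. Of 17 monocyte and macrophage markers, 13 were called lower in Rptor Lin- cells, 9 in GMPs and 8 in CMPs. For all counts in this paragraph, the shares of all tested genes called lower were 5.73%, 7.53% and 5.44% in these populations. Those called higher were 6.82%, 4.37% and 6.01%. Genes of G2 phase and mitosis were called lower for 8 of 19 in Rptor Lin- cells, 13 in GMPs and 1 in CMPs. Of 14 primary granule genes 9 were called lower in Rptor CMPs, as were 9 of 15 secondary granule genes, while 6 of 9 megakaryocyte, 7 of 11 stem cell and 5 of 11 T and NK cell genes were called higher in Rptor Lin- cells. Of 7 eosinophil genes 4 were called lower in Rptor GMPs and 4 in CMPs, while in Lin- cells 2 were called lower and 1 higher. Of 9 dendritic cell genes 3 were called higher in GMPs and 4 in CMPs. Calls the other way included 1 megakaryocyte gene lower in GMPs, where 2 were called higher. In CMPs 1 T and NK cell gene was called lower and 2 higher. Of 9 mast cell and basophil genes 4 were called higher in GMPs, 2 higher and 2 lower in Lin- cells, and 2 higher and 1 lower in CMPs. Of 8 B cell genes 2 were called lower in GMPs and 2 in CMPs. These shifts stand beside every genotype comparison below, and their part in it was not tested.

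The promoters of 5 subunit genes called by genotype below are shown with matches to motifs of factors known to act on respiratory genes. Uqcrq and Cox6a2, also called below, had no promoter among the sequences used here, so none is shown for them. Each is a window of 300 bases around the annotated start, 5' to 3' on the strand of the gene (RefSeq, GRCm38.p6), and capitals mark the matches. Cox7a2l lies at chr17:83514284-83514583 (minus strand), Cox6b2 at chr7:4753045-4753344 (minus), Cox6a1 at chr5:115348909-115349208 (minus), Ndufb7 at chr8:83566508-83566807 (plus) and Ndufc1 at chr3:51408906-51409205 (minus).
Cox7a2l: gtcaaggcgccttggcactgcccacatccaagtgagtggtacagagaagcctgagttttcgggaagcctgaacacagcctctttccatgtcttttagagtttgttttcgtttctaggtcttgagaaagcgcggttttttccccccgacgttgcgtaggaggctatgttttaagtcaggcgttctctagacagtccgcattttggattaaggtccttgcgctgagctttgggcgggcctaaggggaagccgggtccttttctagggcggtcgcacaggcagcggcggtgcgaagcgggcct
Cox6b2: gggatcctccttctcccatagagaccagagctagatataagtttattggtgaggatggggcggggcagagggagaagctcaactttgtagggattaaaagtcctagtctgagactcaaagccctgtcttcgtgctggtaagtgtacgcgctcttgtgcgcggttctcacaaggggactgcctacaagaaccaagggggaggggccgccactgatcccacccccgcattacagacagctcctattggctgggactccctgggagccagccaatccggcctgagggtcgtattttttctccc
Cox6a1: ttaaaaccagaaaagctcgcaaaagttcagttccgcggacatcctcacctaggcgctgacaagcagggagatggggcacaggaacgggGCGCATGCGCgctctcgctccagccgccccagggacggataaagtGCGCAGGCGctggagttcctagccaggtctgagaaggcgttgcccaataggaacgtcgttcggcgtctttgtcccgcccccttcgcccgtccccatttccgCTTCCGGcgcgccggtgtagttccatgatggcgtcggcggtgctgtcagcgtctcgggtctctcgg
Ndufb7: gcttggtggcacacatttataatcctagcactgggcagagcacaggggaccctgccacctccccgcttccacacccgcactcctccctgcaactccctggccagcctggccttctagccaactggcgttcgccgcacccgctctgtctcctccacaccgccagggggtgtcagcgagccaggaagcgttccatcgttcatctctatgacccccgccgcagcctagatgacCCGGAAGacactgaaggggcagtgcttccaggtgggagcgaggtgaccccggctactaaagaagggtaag
Ndufc1: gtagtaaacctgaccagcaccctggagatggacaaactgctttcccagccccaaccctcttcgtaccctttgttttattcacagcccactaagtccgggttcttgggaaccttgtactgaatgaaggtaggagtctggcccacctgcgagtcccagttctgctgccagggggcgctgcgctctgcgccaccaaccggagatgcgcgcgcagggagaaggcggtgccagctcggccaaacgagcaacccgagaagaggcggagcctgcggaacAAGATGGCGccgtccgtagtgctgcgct

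Of the 80 genes, 64 had a promoter in the table, which holds 27025 genes in all, and each motif was searched on both strands. The NRF1 motif GCGCANGCG was found for 18 of the 64 (28.1%, against 7.03% of all genes in the table). The GABP motif CCGGAAG was found for 17 (26.6%, against 9.93%), the YY1 motif AANATGGCG for 9 (14.1%, against 2.76%) and the ERR alpha motif TCAAGGTCA for 2 (3.12%, against 0.466%). These shares were not adjusted for base composition. The Cox6a1 promoter held 3 NRF1 matches, of which 2 overlap in the stretch GCGCATGCGC, and 1 GABP match. The Ndufb7 promoter held 1 GABP match and the Ndufc1 promoter 1 YY1 match just inside the transcript. In the Cox7a2l and Cox6b2 windows none of the 4 motifs was found. A match is a description of letters and not a shown binding site.

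The arrays of Lin- cells stood apart from those of the fresh progenitors at the level of single probe sets. Of 1082 genes with several probe sets, the sets disagreed by more than 1 log2 unit for 420 genes (38.8%) between WT Lin- cells and WT CMPs and for 426 (39.4%) between WT Lin- cells and WT GMPs. The number was 12 genes (1.11%) between WT GMPs and WT CMPs. Within a population it was 10 genes (0.924%) for Rptor against WT in Lin- cells, 18 (1.66%) in GMPs and 17 (1.57%) in CMPs. Among the subunit genes, 9 had a pair of probe sets, and 4 of these pairs disagreed by that much between WT Lin- cells and WT CMPs, 5 between WT Lin- cells and WT GMPs and 0 in the other comparisons. The delta subunit gene Atp5d differed by 4.95 between WT Lin- cells and WT CMPs in the probe set used and by 0.60 in its other one. For Ndufa8 the 2 sets gave -0.12 and 4.05. Cell population, culture and any difference in how the arrays were made or run coincide here and cannot be told apart, so comparisons of Lin- cells with CMPs or GMPs are given briefly, while comparisons of genotype within Lin- cells stay among Lin- arrays.

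**Figure D1:**
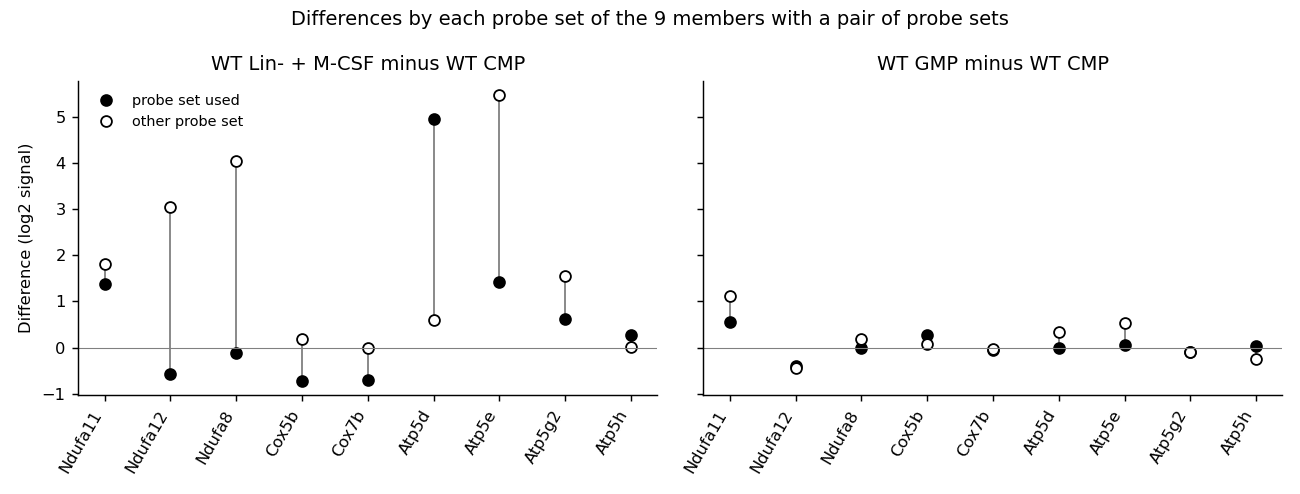
Difference in log2 signal between WT Lin- + M-CSF cells and WT CMPs (left) and between WT GMPs and WT CMPs (right) for the 9 subunit genes with a pair of probe sets, filled points for the probe set used and open points for the other. The sets of Ndufa12, Ndufa8, Atp5d and Atp5e part by more than 1 unit in the left panel only.

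The genotype difference was small for most subunit genes in all 3 populations. In Rptor Lin- cells 1 of 76 genes was called higher and 7 were called lower (1.32% and 9.21%), against 6.82% and 5.73% of all 16638 tested genes. On the same arrays the mean of the G2 and mitosis genes was 8.71 to 8.79 in Rptor and 8.96 to 9.23 in WT Lin- cells. In Rptor GMPs 2 were called higher and 2 lower (2.63% each), against 4.37% and 7.53% of all tested genes. In Rptor CMPs 2 were called higher and 1 lower (2.63% and 1.32%), against 6.01% and 5.44% of all tested genes. The subunits' shares lay below those of all genes, except for lower calls in Lin- cells. The median difference of the 76 genes was -0.06 in Lin- cells, -0.07 in GMPs and 0.00 in CMPs, beside 0.01, 0.02 and -0.01 for all tested genes. The difference was above 0 for 22, 25 and 39 of the 76 genes in those populations. Called in any population were 11 of the 76 (14.5%), against 25.5% of all tested genes. A difference of at least 0.5 in any population was reached by 4 (5.26%), against 17.9% of all tested genes. Of the genes that were not called, the 95% interval lay within 0.5 on either side of 0 for 63 of 68 in Lin- cells, 62 of 72 in GMPs and 67 of 73 in CMPs. The counts rest on single arrays. In GMPs 4 calls became 0 without Rptor GMP array 1 or 2 or WT GMP array 2, 1 without WT GMP array 1 and 2 without WT GMP array 3. In CMPs 3 became 1 without Rptor CMP array 2 or 3 or WT CMP array 1 or 3. In Lin- cells 8 became 4 without Rptor Lin- array 3 or WT Lin- array 2 and 5 without Rptor Lin- array 1. Array weights turned the GMP count to 4 higher and 16 lower, with 14.8% and 17.2% of all genes called. Subunits that kept 1 direction in all 3 populations numbered 9 higher and 25 lower (44.7% together, against 39.2% of all tested genes).

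**Figure D2:**
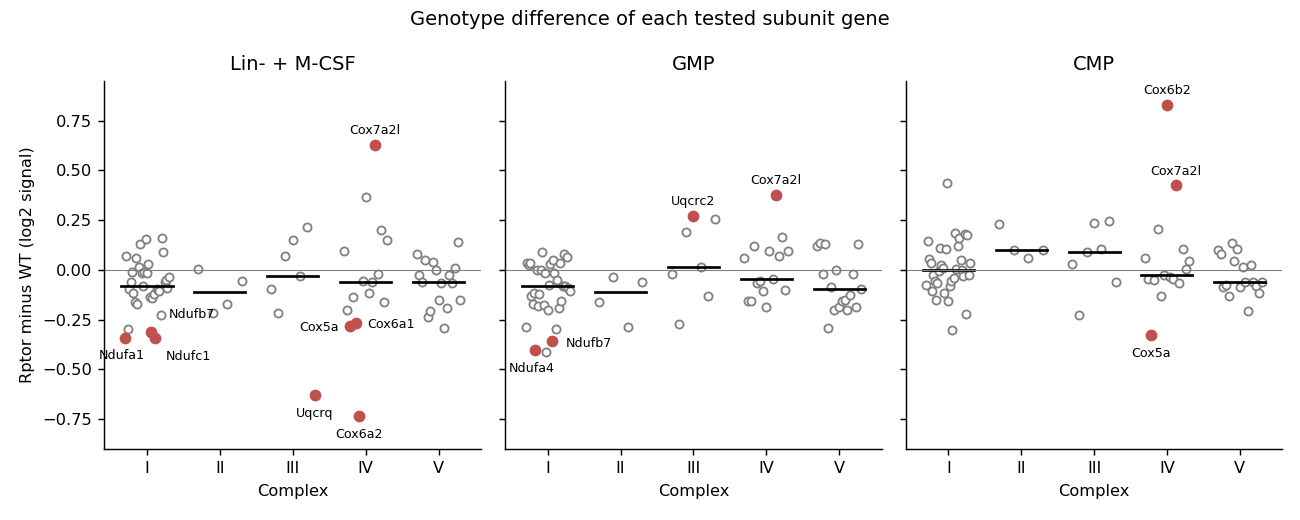
Difference in log2 signal, Rptor minus WT, of each tested subunit gene by complex in Lin- + M-CSF cells, GMPs and CMPs. Filled and named points are called (limma, adjusted p under 0.05), open points are not, and black bars are the median of the complex. Most points lie within 0.3 of 0, and Cox7a2l is called higher in all 3 panels.

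Complex I takes electrons from NADH, and its members here are supernumerary and core subunits. At the adjusted p of limma, 0 of its 33 genes were called higher in any population, and at an unadjusted p under 0.05 there were 0 in Lin- cells and GMPs and 1 in CMPs. Counted by symbol, 3 fell in Rptor Lin- cells, 2 in GMPs and 0 in CMPs (2 at an unadjusted p under 0.05). Of all tested genes 5.73%, 7.53% and 5.44% were called lower in these populations, and 6.82%, 4.37% and 6.01% higher. The same shares stand beside the counts of the other complexes below. The median differences of the complex I genes were -0.08, -0.08 and 0.00. The 2 in GMPs were Ndufb7 and Ndufa4, of which Ndufa4 is now placed in complex IV (below). Ndufb7, a subunit of the membrane arm, was 9.48, 9.64, 9.34 and 9.53 in Rptor Lin- cells, against 9.69, 9.93, 9.83 and 9.79 in WT Lin- cells. In GMPs it was 9.52, 9.43 and 9.80 on the Rptor arrays, against 9.90, 10.05 and 9.88 on the WT arrays. The groups did not overlap in either population. Ndufb7 fell by 0.31 ± 0.09 (SE, adjusted p = 0.0329, limma) in Lin- cells and by 0.36 ± 0.11 (adjusted p = 0.0342) in GMPs, and its difference in CMPs was -0.30 ± 0.11 (adjusted p = 0.0803). The Lin- call was lost without Rptor Lin- array 1 or 3 or WT Lin- array 2, 3 or 4, with differences of -0.26 to -0.32 there, and the GMP call without Rptor GMP array 1 or 2 or WT GMP array 1, 2 or 3, with differences of -0.28 to -0.39 there.

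Ndufa4, first described with complex I and now known as a complex IV subunit, fell in GMPs. Its signal was 10.27, 10.20 and 10.66 on Rptor GMP arrays, against 10.77, 10.82 and 10.76 on WT GMP arrays. All Rptor arrays lay below all WT arrays, the third one closest to them. The difference was -0.41 ± 0.11 (SE, adjusted p = 0.0161), and the call was lost without Rptor GMP array 1 or 2 or WT GMP array 2 (-0.35, -0.32 and -0.39). Ndufa1 and Ndufc1, small subunits of the membrane arm, fell in Rptor Lin- cells. Ndufa1 was 10.39, 10.34, 10.15 and 10.40 in Rptor Lin- cells, against 10.60, 10.78, 10.56 and 10.70 in WT Lin- cells. Ndufc1, whose promoter with a YY1 match is shown above, was 6.73, 6.73, 6.45 and 6.68 in Rptor Lin- cells, against 6.99, 7.16, 6.90 and 6.92 in WT Lin- cells. In neither gene did the groups overlap, and both differences were -0.34 (adjusted p = 0.0181 for Ndufa1 and 0.0243 for Ndufc1). Both calls were lost without Rptor Lin- array 3 (-0.28 for each gene) or WT Lin- array 2 (-0.30 for Ndufa1 and -0.29 for Ndufc1).

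Complex II, succinate dehydrogenase, is the enzyme that the chain shares with the citric acid cycle, and all its subunits are nuclear. By limma, 0 of its 4 genes were called in a genotype comparison, and at an unadjusted p under 0.05 there was 1 lower in Lin- cells, 1 lower in GMPs and 0 in CMPs. The differences of Sdha, Sdhb, Sdhc and Sdhd lay between -0.22 and 0.00 in Lin- cells, between -0.29 and -0.04 in GMPs and between 0.06 and 0.23 in CMPs. The flavoprotein gene Sdha had the highest difference of the 4 in CMPs, 0.23 with a 95% interval of -0.03 to 0.49. The membrane anchor gene Sdhc had the lowest in GMPs, -0.29 with an interval of -0.52 to -0.06 (adjusted p = 0.108).

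Complex III passes electrons from ubiquinol to cytochrome c. Its 7 tested genes gave 1 call in Lin- cells (lower), 1 in GMPs (higher) and 0 in CMPs, where 2 were higher at an unadjusted p under 0.05 (limma). Of all tested genes 5.73% were called lower in Lin- cells and 4.37% higher in GMPs. Uqcrq, a small subunit that binds near cytochrome b, was 8.18, 8.30, 7.84 and 8.18 in Rptor Lin- cells, against 8.81, 8.71, 8.72 and 8.78 in WT Lin- cells. In GMPs it was 9.67, 9.64 and 9.36 in Rptor cells, against 9.31, 9.42 and 9.18 in WT cells. In CMPs it was 8.86, 9.06 and 9.08 in Rptor cells, against 9.058, 8.997 and 9.127 in WT cells. Every Rptor array lay below every WT array in Lin- cells, whereas the groups overlapped in GMPs and CMPs. Uqcrq fell by 0.63 ± 0.10 in Lin- cells (SE, 0.646-fold, adjusted p = 0.000258), and this call was kept whichever array was left out (-0.69 to -0.53). Its differences were 0.26 ± 0.12 in GMPs (adjusted p = 0.192) and -0.06 ± 0.12 in CMPs (adjusted p = 0.866). Uqcrc2, a core protein of the complex, was 10.52, 10.49 and 10.51 in Rptor GMPs, against 10.20, 10.29 and 10.22 in WT GMPs. The groups did not overlap, and Uqcrc2 rose by 0.27 ± 0.08 (adjusted p = 0.0387, limma). That call was lost on leaving out any of the 6 GMP arrays (0.26 to 0.30, adjusted p = 0.0673 to 0.132). Its differences were 0.15 in Lin- cells and 0.24 in CMPs, neither of them called. The other core protein gene, Uqcrc1, differed by 0.07, 0.19 and 0.09 in Lin- cells, GMPs and CMPs, and was not called.

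Complex IV, cytochrome c oxidase, hands the electrons to oxygen, and several of its nuclear subunits exist as isoforms. Of its 15 tested genes 1 rose and 3 fell in Rptor Lin- cells, 1 rose in GMPs, and 2 rose and 1 fell in CMPs. Of all tested genes 6.82%, 4.37% and 6.01% were called higher in these populations, and 5.73%, 7.53% and 5.44% lower. Cox7a2l, known as a factor that joins complexes III and IV into supercomplexes, was the 1 subunit gene called in all 3 populations. In Lin- cells it was 9.97, 9.88, 9.97 and 10.20 on Rptor arrays, against 9.35, 9.42, 9.39 and 9.36 on WT arrays. In GMPs it was 9.21, 9.27 and 9.22 on Rptor arrays, against 8.90, 8.68 and 8.99 on WT arrays. In CMPs it was 8.89, 9.32 and 9.28 on Rptor arrays, against 8.68, 8.80 and 8.74 on WT arrays. The Rptor arrays lay above the WT arrays in each population. The rise was 0.63 ± 0.10 in Lin- cells (SE, 1.55-fold, adjusted p = 0.000212), 0.38 ± 0.12 in GMPs (1.30-fold, adjusted p = 0.0354) and 0.42 ± 0.12 in CMPs (1.34-fold, adjusted p = 0.0176). Of all tested genes, 129 were called higher and 184 lower in all 3 populations (1.88% together), so a call in each is not particular to this gene. The Lin- call was kept whichever array was left out (0.56 to 0.67). The GMP call was lost without any Rptor GMP array or WT GMP array 1 or 2 (0.29 to 0.40 there), and the CMP call without Rptor CMP array 2 or 3 or WT CMP array 1 or 3 (0.35 to 0.42 there).

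Cox6b2, known as the testis form of a subunit on the outer face of the complex, rose in Rptor CMPs. Its signal was 9.91, 10.28 and 9.85 in Rptor CMPs, against 9.32, 9.14 and 9.09 in WT CMPs. In Lin- cells it was 8.57, 8.43, 8.30 and 8.38 in Rptor cells, against 8.20, 8.28, 7.96 and 7.79 in WT cells. In GMPs it was 8.23, 8.70 and 8.13 in Rptor cells, against 8.54, 8.54 and 8.55 in WT cells. The groups lay apart in CMPs and in Lin- cells and overlapped in GMPs. The CMP rise of 0.83 ± 0.15 (SE, 1.78-fold, adjusted p = 0.000475) was kept whichever array was left out (0.70 to 0.91), while the Lin- difference of 0.37 ± 0.13 was not called (adjusted p = 0.0678). The widely expressed form Cox6b1 stayed between 9.31 and 9.77 on all 20 arrays. Cox6b2 was also higher in WT CMPs than in WT GMPs (below), as were the erythroid markers, whose means are given above and whose part in this result was not tested.

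Cox5a and Cox6a1, nuclear subunits found in most tissues, and Cox6a2, known as the heart and muscle form of Cox6a1, fell in Rptor Lin- cells. Cox6a1, whose promoter with NRF1 and GABP matches is shown above, was 11.30, 11.37, 11.37 and 11.20 in Rptor Lin- cells, against 11.60, 11.64, 11.56 and 11.52 in WT Lin- cells. Cox6a2 was 9.62, 9.23, 9.56 and 8.82 in Rptor Lin- cells, against 10.06, 10.02, 10.02 and 10.06 in WT Lin- cells. Cox5a was 10.52, 10.66, 10.56 and 10.30 in Rptor Lin- cells, against 10.70, 10.87, 10.80 and 10.79 in WT Lin- cells. All 3 genes were lower on every Rptor than on every WT array. The differences were -0.27 for Cox6a1 (adjusted p = 0.0298, limma), -0.73 for Cox6a2 (adjusted p = 0.00309) and -0.28 for Cox5a (adjusted p = 0.0396). Cox6a2 kept its call whichever array was left out (-0.84 to -0.57). Cox6a1 lost it without Rptor Lin- array 1 or 4 or WT Lin- array 1 or 2 (-0.23 to -0.26), and Cox5a without Rptor Lin- array 1, 3 or 4 or WT Lin- array 2, 3 or 4 (-0.21 to -0.30). Cox5a also fell in CMPs, where it was 10.43, 10.22 and 10.36 in Rptor cells, against 10.67, 10.65 and 10.66 in WT cells. That fall of 0.33 ± 0.10 (adjusted p = 0.0386) was called without Rptor CMP array 1 and lost without each of the other 5 CMP arrays (-0.27 to -0.34).

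**Figure D3:**
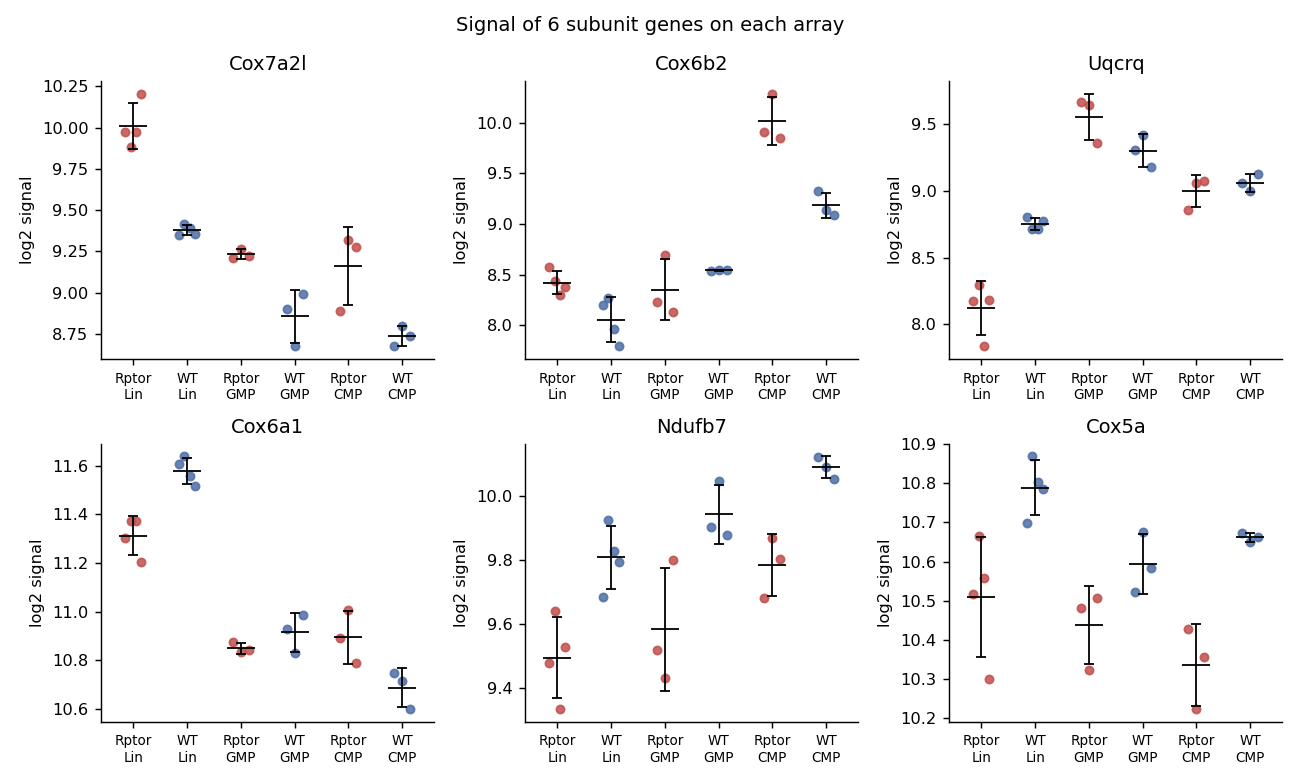
Log2 signal of Cox7a2l, Cox6b2, Uqcrq, Cox6a1, Ndufb7 and Cox5a on each of the 20 arrays, with the group mean and SD in black. Lin stands for Lin- + M-CSF cells. The Rptor arrays (red) lie above the WT arrays (blue) for Cox7a2l in each population, and below them in Lin- cells for the last 4 genes.

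Complex V, the ATP synthase, gave 0 called genes of 17 in each population at the adjusted p of limma. At an unadjusted p under 0.05, 2 were lower in Lin- cells, 2 in GMPs and 1 in CMPs, and 0 were higher. Its differences ran from -0.29 to 0.14 in Lin- cells, from -0.29 to 0.14 in GMPs and from -0.21 to 0.14 in CMPs, with medians of -0.06, -0.10 and -0.06. The alpha and beta subunit genes Atp5a1 and Atp5b differed by 0.08 and -0.02 in Lin- cells, 0.12 and 0.14 in GMPs and 0.10 and 0.08 in CMPs. The largest of the uncalled falls in GMPs was that of Atp5e, a small subunit of the central stalk, at -0.29 (95% interval -0.49 to -0.09, adjusted p = 0.0537).

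Averaged over the members of a complex, the genotypes lay close together on every complex. The means and medians in this paragraph take in all members, also those too dim to be tested. These were Uqcrh-ps1 in complex III, Cox7b2 and Cox8c in complex IV and Atp5c1-ps in complex V. The mean of the 33 complex I genes was 8.78 ± 0.03 in Rptor and 8.86 ± 0.05 in WT Lin- cells (SD, n = 4 each), 8.81 ± 0.06 in Rptor and 8.91 ± 0.05 in WT GMPs, and 8.999 ± 0.082 in Rptor and 8.990 ± 0.038 in WT CMPs (n = 3 each). For the 4 complex II genes it was 8.38 ± 0.11 in Rptor and 8.49 ± 0.11 in WT Lin- cells, 8.84 ± 0.05 in Rptor and 8.97 ± 0.07 in WT GMPs, and 9.06 ± 0.09 in Rptor and 8.93 ± 0.06 in WT CMPs. Complex III averaged 8.03 ± 0.06 in Rptor and 8.12 ± 0.06 in WT Lin- cells, 8.67 ± 0.04 in Rptor and 8.64 ± 0.05 in WT GMPs, and 8.66 ± 0.05 in Rptor and 8.59 ± 0.02 in WT CMPs. Complex IV averaged 8.18 ± 0.04 in Rptor and 8.24 ± 0.02 in WT Lin- cells, 8.08 ± 0.01 in both Rptor and WT GMPs, and 8.14 ± 0.02 in Rptor and 8.09 ± 0.02 in WT CMPs. The median differences of its 17 members by genotype were -0.11, -0.04 and -0.03 in these populations, so in CMPs the median and the means part in direction. Single isoforms weigh on these means: Cox6a2 differed by -0.735 in Lin- cells and Cox6b2 by 0.83 in CMPs. Complex V averaged 8.91 ± 0.06 in Rptor and 8.98 ± 0.04 in WT Lin- cells, 8.55 ± 0.07 in Rptor and 8.60 ± 0.04 in WT GMPs, and 8.64 ± 0.02 in Rptor and 8.67 ± 0.02 in WT CMPs. The means of complexes II and III were lower in WT Lin- cells than in WT CMPs, with median differences of -0.46 and -0.34 over their members. The higher mean of complex V in WT Lin- cells than in WT CMPs rests largely on Atp5d (4.95, against 0.60 in its other probe set). The median difference of the 18 members was 0.01 there, with 9 above 0. Against WT GMPs their median difference was 0.15, with 11 of 18 above 0. Among these 11 was the untested pseudogene Atp5c1-ps, at 3.07 in WT Lin- cells and 2.93 in WT GMPs. Atp5d weighs on the mean there too (4.96, against 0.26 in its other probe set). Of the 17 tested complex V genes 6 were called higher and 5 lower there (limma), against 20.3% and 36.1% of all tested genes. The complex IV mean was also higher in WT Lin- cells than in WT CMPs, while its median difference was -0.09. Its highest member difference was 4.85, that of Cox6a2. These comparisons set Lin- arrays against progenitor arrays, whose probe sets disagree as described above. The complexes hold different genes, so their levels are not compared with each other.

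**Figure D4:**
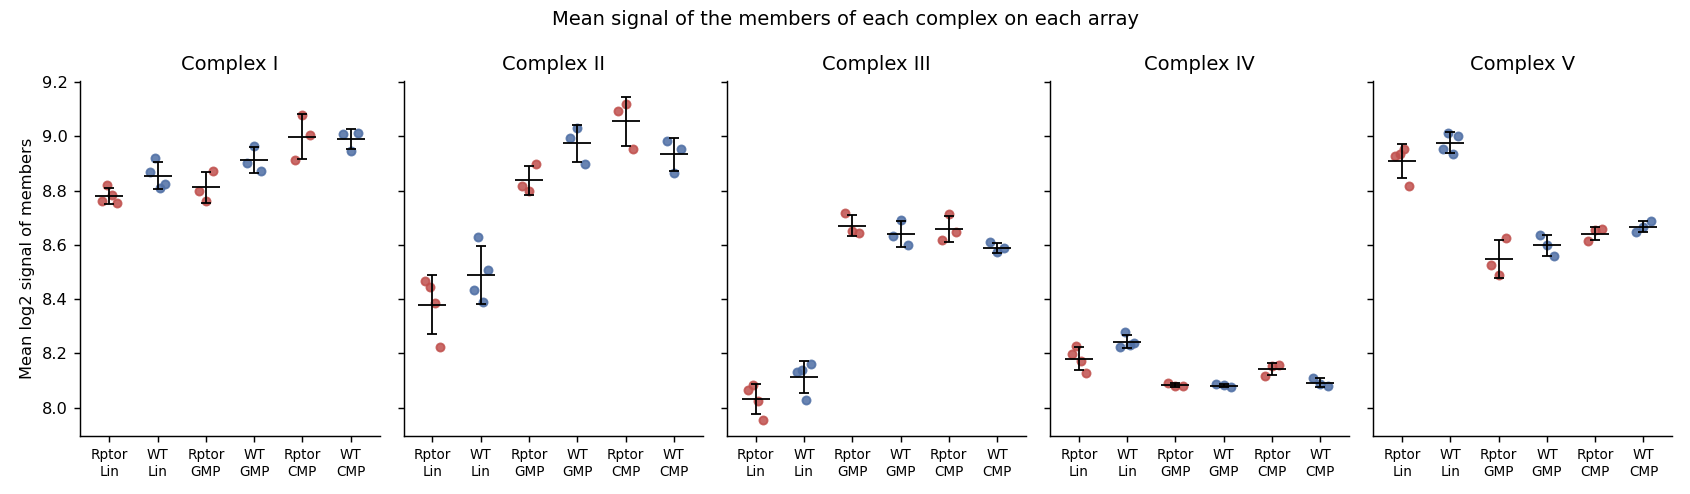
Mean log2 signal of the members of complexes I to V on each array, with the mean and SD of each group in black. Rptor (red) and WT (blue) lie close within a population, and complexes II and III are lower in Lin- + M-CSF cells (Lin) than in the fresh progenitors. Against WT CMPs, the higher complex V mean in WT Lin rests largely on 1 probe set, that of Atp5d. Against WT GMPs, Atp5d weighs on this mean too, and 11 of the 18 complex V members were higher in WT Lin. Of the 17 tested, 6 were called higher and 5 lower (limma), against 20.3% and 36.1% of all tested genes.

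Whether the genotype difference itself differed between populations was tested as an interaction. Between GMPs and CMPs 1 of 76 genes was called, against 2.5% of all tested genes. This was Cox6b2, whose genotype difference was lower in GMPs than in CMPs by 1.02 ± 0.21 (SE, adjusted p = 0.00994). Between Lin- cells and CMPs 2 were called, against 7.77% of all tested genes. They were Uqcrq, at -0.57 ± 0.16 (adjusted p = 0.0254), and Cox6a1, at -0.47 ± 0.12 (adjusted p = 0.015). Between Lin- cells and GMPs 1 was called, against 4.77% of all tested genes, again Uqcrq, at -0.88 ± 0.16 (adjusted p = 0.00146). The Cox6b2 call and the call of Uqcrq between Lin- cells and GMPs were kept whichever array was left out. The Cox6a1 call was lost without Rptor CMP array 2 or WT CMP array 3 (-0.42 and -0.43), and the call of Uqcrq between Lin- cells and CMPs without Rptor CMP array 2 or 3 or WT CMP array 1 or 2 (-0.57 to -0.53). The genotype differences of Cox7a2l were not called as different between any 2 populations.

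The subunits encoded by mitochondrial DNA, outside the symbol rule, gave calls in GMPs. Of 10 with a probe set of their own, 5 were called lower in Rptor GMPs, against 7.53% of all tested genes, and 0 of 10 were called in either direction in Lin- cells or CMPs (limma; at an unadjusted p under 0.05, 0 of 10 in each as well). In the interaction tests 0 of the 10 were called, so that a difference between populations was not shown. The median difference of the 10 was -0.06 in Lin- cells, -0.29 in GMPs and -0.09 in CMPs. ND3, a membrane subunit of complex I, was 8.54, 8.41 and 8.80 in Rptor GMPs, against 9.47, 9.24 and 8.94 in WT GMPs. ND4L, another small membrane subunit, was 7.80, 7.05 and 7.77 in Rptor GMPs, against 8.65, 8.44 and 7.70 in WT GMPs. ND3 separated the groups, while for ND4L the lowest WT array reached the Rptor arrays. ND3 fell by 0.64 (adjusted p = 0.00085, limma), ND2 by 0.66 (adjusted p = 0.011), ND4L by 0.72 (adjusted p = 0.0283), ND4 by 0.32 (adjusted p = 0.0278) and CYTB, the cytochrome b of complex III, by 0.31 (adjusted p = 0.0497). COX1, a core subunit of complex IV, was 12.51 to 12.62 on Rptor GMP arrays, against 12.52 to 12.59 on WT GMP arrays. COX3, another core subunit, was 11.41 to 11.52 on Rptor GMP arrays, against 11.47 to 11.50 on WT GMP arrays. The count of 5 became 1 without Rptor GMP array 2, WT GMP array 1 or WT GMP array 2, and ND3 alone kept its call whichever array was left out (-0.77 to -0.51). On the same arrays 13 of 19 genes of G2 phase and mitosis were called lower, and their part in this result was not tested.

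**Figure D5:**
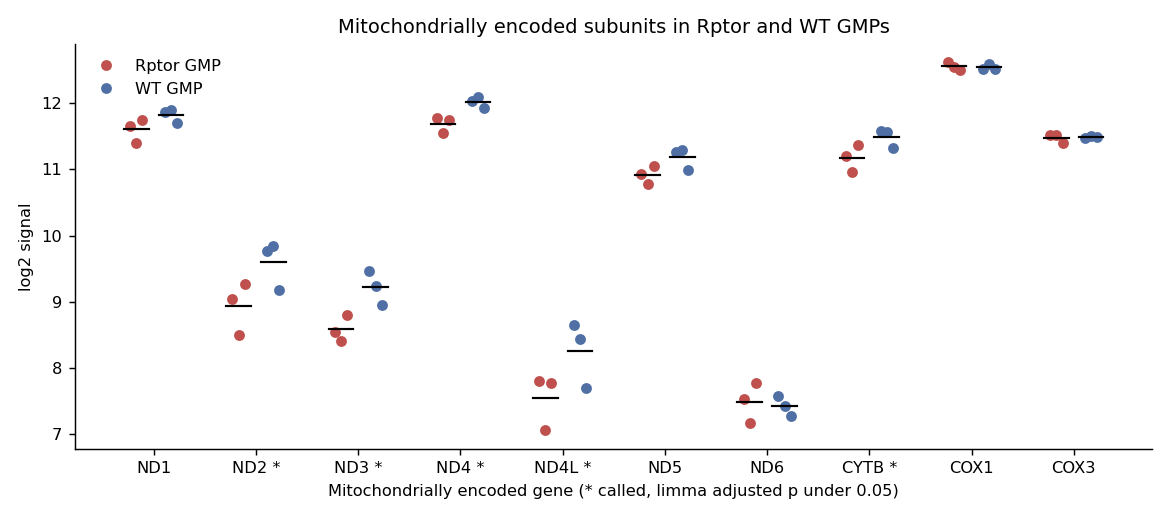
Log2 signal of 10 mitochondrially encoded genes on the 3 Rptor GMP arrays (red, left) and the 3 WT GMP arrays (blue, right), with group means as bars and called genes starred. ND3 and ND4 separate the groups, while the second Rptor array is the lowest in ND2, ND3, ND4 and ND4L and the third WT array is the lowest WT array in the same genes.

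Assembly factors, which fit subunits and cofactors into the complexes, were called lower for 8 of 52 genes and higher for 1 in Rptor GMPs, against 7.53% and 4.37% of all tested genes. The 8 were Ndufaf2, Ndufaf3, Ndufaf7 and Tmem126b for complex I, Uqcc2 for complex III, and Cox20, Cmc2 and Higd1a for complex IV. Cox20, a chaperone of a core subunit of complex IV, was 7.48, 7.22 and 7.77 in Rptor GMPs, against 8.29, 8.68 and 8.00 in WT GMPs. Ndufaf2 was 6.34, 6.24 and 6.63 in Rptor GMPs, against 7.13, 7.24 and 7.18 in WT GMPs. Neither gene overlapped between the groups. Cox20 fell by 0.83 ± 0.15 (SE, adjusted p = 0.000741) and Ndufaf2 by 0.78 ± 0.19 (adjusted p = 0.00731). Cox20, Ndufaf2, Ndufaf3 and Cmc2 were called whichever array was left out. Ndufaf7 lost its call without Rptor GMP array 1 or 2 or WT GMP array 1 or 2, and Tmem126b without Rptor GMP array 1 or 2 or WT GMP array 1 or 3. Higd1a lost its call without Rptor GMP array 1 or WT GMP array 1 or 2, and Uqcc2 without Rptor GMP array 3 or WT GMP array 2 or 3. The differences of these 4 genes in such fits were -0.37 to -0.41, -0.41 to -0.47, -0.43 to -0.54 and -0.31 to -0.44. The count of 8 became 5 without Rptor GMP array 1, WT GMP array 1 or WT GMP array 2. Beside these, 13 of 19 genes of G2 phase and mitosis were called lower in Rptor GMPs, with a mean per array of 8.31 to 8.48 in Rptor and 8.95 to 9.13 in WT GMPs, and their part in the result was not tested. The higher gene was Atpaf1, a factor for complex V, at 0.42, and this call was lost on leaving out any of the 6 arrays (0.35 to 0.48).

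In Rptor Lin- cells 2 of the 52 assembly factors rose and 4 fell, against 6.82% and 5.73% of all tested genes. Uqcc3 rose by 0.59 and Uqcc2 fell by 0.53, both assembly factors of complex III, and Nubpl, an iron-sulfur factor of complex I, rose by 0.50. Higd1a fell by 0.62, Cox10, which makes the heme of complex IV, by 0.44 and Cmc2 by 0.33. Of these 6, Cmc2 lost its call without Rptor Lin- array 2 or 4 or WT Lin- array 1 or 2 (-0.26 to -0.32), and the other 5 were called whichever array was left out. In Rptor CMPs 2 rose and 0 fell, against 6.01% and 5.44% of all tested genes: Lyrm7, a factor for the iron-sulfur protein of complex III, by 0.58, and Lrpprc, which stabilises mitochondrial mRNAs, by 0.38. Lyrm7 was called whichever array was left out, and Lrpprc lost its call without any CMP array but the third Rptor one (0.31 to 0.42). At an unadjusted p under 0.05, 6 assembly factors were higher and 3 lower in CMPs (limma).

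Among 15 tested regulators of mitochondrial gene expression, 2 rose in Rptor CMPs, against 6.01% of all tested genes, and 0 were called in Lin- cells or GMPs (limma). At an unadjusted p under 0.05, 2 were higher and 1 lower in Lin- cells, and 1 was higher in GMPs. Ppargc1b, a coactivator of respiratory genes, was 6.77, 6.93 and 6.97 in Rptor CMPs, against 6.33, 5.87 and 6.21 in WT CMPs. Its rise was 0.75 ± 0.15 (SE, adjusted p = 0.00123). Pprc1, a related coactivator, was 9.11, 9.18 and 9.11 in Rptor CMPs, against 8.83, 8.72 and 8.73 in WT CMPs, a rise of 0.37 ± 0.10 (adjusted p = 0.0117). Neither gene overlapped between the groups, and Pprc1 lost its call without Rptor CMP array 2 (0.35). The proteins of the mitochondrial ribosome, another large nuclear set, had 2 of 71 called higher in each population, and 4, 4 and 1 called lower in Lin- cells, GMPs and CMPs, with medians of -0.09, -0.06 and 0.05. Of all tested genes 6.82%, 4.37% and 6.01% were called higher in these populations, and 5.73%, 7.53% and 5.44% lower. The cytosolic ribosomal proteins had medians of 0.15, 0.09 and 0.10 over 63 genes in the same populations. Of these, 7 were called higher and 6 lower in Lin- cells, and 2 higher and 1 lower in CMPs (limma). In GMPs 3 were called higher and 0 lower (1 lower at an unadjusted p under 0.05).

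Between fresh WT populations the subunit genes also differed little. In WT GMPs 2 of 76 were higher and 6 lower than in WT CMPs (2.63% and 7.89%), against 6.65% and 4.35% of all tested genes, with a median of -0.05 beside 0.00. Cox6b2 was lower by 0.64 (8.54, 8.54 and 8.55 in WT GMPs, against 9.32, 9.14 and 9.09 in WT CMPs, adjusted p = 0.00717, limma). Ndufs1, the large iron-sulfur subunit of complex I, was lower by 0.50, the complex I genes Ndufv2 and Ndufc2 by 0.48 and 0.42, Ndufa12 by 0.39, and Uqcrb of complex III by 0.45. Ndufb11 was 5.96, 6.03 and 6.14 in WT GMPs, against 5.09, 4.96 and 5.36 in WT CMPs. It was higher in WT GMPs by 0.90 ± 0.20 (SE, adjusted p = 0.00639), and Ndufa11 by 0.55 ± 0.15 (adjusted p = 0.0211). None of these 8 overlapped between the groups, on the same arrays that gave their calls. Cox6b2 (-0.69 to -0.57) and Ndufb11 (0.81 to 1.02) were called whichever of the 6 WT arrays was left out. Ndufc2 lost its call without WT GMP array 3 (-0.37). Ndufa11, Ndufa12, Ndufs1, Ndufv2 and Uqcrb each lost theirs without WT GMP array 1, WT GMP array 3 or WT CMP array 3, among others, and the count of 8 became 3, 2 and 3 without these arrays.

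Between Lin- arrays and progenitor arrays, 19 of 76 subunit genes were called higher and 36 lower in WT Lin- cells than in WT CMPs, against 19.6% and 36.0% of all tested genes. Against WT GMPs, 20 were called higher and 32 lower, against 20.3% and 36.1% of all tested genes. The medians were -0.26 against CMPs and -0.11 against GMPs, beside -0.14 and -0.14 for all tested genes. Uqcrc1 was 9.50, 9.64, 9.50 and 9.58 in WT Lin- cells, against 11.27, 11.45 and 11.44 in WT GMPs and 11.11, 11.10 and 11.13 in WT CMPs. It was the gene with the largest called fall in both comparisons, by 1.83 against GMPs and by 1.56 against CMPs. Ndufv1, which binds NADH, was lower by 1.07 and 1.13, and Ndufa9 by 0.83 and 1.11. Cox6a2 was the gene of the second largest rise, with 10.06, 10.02, 10.02 and 10.06 in WT Lin- cells, against 5.52, 5.43 and 5.15 in WT GMPs and 5.55, 5.18 and 4.84 in WT CMPs. Cox6a2 has 1 probe set, so it could not be checked by a second, and 752 of all probe sets (1.82%) differed by more than 3 between WT Lin- cells and WT CMPs, against 17 between WT GMPs and WT CMPs.

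Of the other tissue-restricted isoforms, Cox4i2, known from lung, was 4.81 to 5.79 over the 20 arrays and Cox7a1, known from heart and muscle, 5.33 to 6.01, and neither was called by genotype. Cox8b and Ndufa4l2 lay just above the filter, with means of 3.91 and 3.97, and Cox7b2, Uqcrh-ps1, Atp5c1-ps and Cox8c below it, at 2.73, 3.19, 3.11 and 3.78. The probe sets with the highest mean signal were those of Atp5l (11.84), Atp5b (11.79), Atp5md (11.71), Cox4i1 (11.40) and Atp5a1 (11.39), which is an order of signal and not of RNA levels. Of the 80 genes, 49 were at or above the 90th percentile of probe-set means, so most were measured well above the dim end of the array. Cox4i1 differed by genotype by 0.10 in Lin- cells and by 0.06 in GMPs and CMPs, with 95% intervals of -0.05 to 0.25, -0.11 to 0.23 and -0.11 to 0.23.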

How the data were processed

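Total RNA of sorted or cultured mouse bone marrow cells had been amplified and hybridised to single-channel arrays, per the labels' protocols. The deposited values are log2 signals for 41345 probe sets on 20 arrays; RMA, Partek 6.6 and limma are named in the submitters' processing notes, without their roles or order. Of the probe sets, 23521 name 1 gene, 1814 several and 16010 none, per the platform annotation, and only the first kind was used. Where a gene had several, its brightest probe set by mean signal stood for it. Genes with a mean under the 25th percentile of probe-set means (3.86) were left out, which left 16638.

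With limma 3.58.1 (R 4.3.3), 1 linear model of the 6 group means took in all 20 arrays, followed by contrasts and empirical Bayes moderation, so the groups share an estimate of the spread. The 9 comparisons were Rptor against WT in each population, the 3 differences between these, and the WT populations against each other. P-values were adjusted by Benjamini-Hochberg over all genes tested in a comparison. The fit was tested on simulated data first. Tables and plots used Python 3.11.15, pandas 2.3.3 and matplotlib 3.10.9. Array signals carry no counting depth, and the number of arrays limits the precision.

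Named genes were subunits called by genotype (up to 10 of largest change per comparison and 3 per complex) or by interaction (up to 5), up to 5 in each direction between WT populations, the tissue-restricted isoforms with their common counterparts, the 5 of highest and of lowest mean, and up to 4 called genes of each background list. Further assembly factors, mitochondrially encoded genes and uncalled subunits of complexes II, III and V were named after their values were seen. The subunit genes and lists were chosen with earlier results of these data known. Alternatives changed the filter, the probe-set rule, the arrays fitted, a replicate block, array weights, the eBayes options, the normalization, a fold threshold, the membership of the complexes and the arrays left out one at a time; the list counts were repeated as an alternative chosen after seeing the data. Of 87 coding genes that match the symbol rule in RefSeq, 9 had no probe set of their own and were not analysed here.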

Additional observations from a re-analysis of the deposited data

Results flagged for a closer look

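In 4 of 58 groups of 4 Lin- arrays that were examined, 1 array stood far from the others for a subunit gene, and chance gives this in about 1 in 20 groups. Atp5j2, a subunit of the membrane part of complex V, had one WT Lin- array at 5.03, with the next at 5.73. Cox5b, a zinc-binding subunit of complex IV, had one WT Lin- array at 9.65 (others up to 9.39). Ndufa9 of complex I had one WT Lin- array at 9.27, with the next at 9.42. Ndufs1 had one Rptor Lin- array at 8.11, with the next at 7.84.

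In the tests of whether the genotype difference itself differed between populations, 4 passed. For Cox6b2 it was lower in GMPs than in CMPs by 1.02 on the log2 scale (-1.02, adjusted p = 0.00994, limma). For Cox6a1 it was -0.47 in Lin- cells relative to CMPs (adjusted p = 0.015). For Uqcrq it was -0.57 in Lin- cells relative to CMPs (adjusted p = 0.0254) and -0.89 relative to GMPs (adjusted p = 0.00146). The cause of these differences was not tested.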

How the results depend on the processing

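Of the single-gene values 0 changed sign under an alternative, and 17 of 185 alternative values of member and complex medians did, all of them for reported medians within 0.053 of 0 (among them those of members in Rptor CMPs, WT GMPs against CMPs and the interaction of Lin- cells and GMPs, and of complex IV). Of recomputed counts and medians 312 stayed near the reported value and 73 moved, and of single-gene values 258 kept their call and 73 lost it. Subunits called in Rptor CMPs (3) numbered 7 with array weights, 5 with trended and robust variances and 1 at a fold of 1.5; in Rptor GMPs (4) they numbered 20 with array weights, 1 with only the populations compared and 0 at a fold of 1.5; in Rptor Lin- cells (8) they numbered 4, 3 and 3 under these settings and 5 with median-centred arrays. Interaction calls numbered 5 (GMPs relative to CMPs) and 2 (Lin- cells relative to GMPs) with array weights, and 0 (Lin- cells relative to CMPs) at a fold of 1.5. Calls of WT GMPs against WT CMPs numbered 17 with array weights and 2 at a fold of 1.5, and those of WT Lin- cells 29 against CMPs and 24 against GMPs at a fold of 1.5. Member medians with median-centred arrays were -0.116 for the interaction of GMPs and CMPs, 0.002 for WT GMPs against CMPs and -0.202 for WT Lin- cells against CMPs. The last was -0.192 without a filter and -0.209 after repeated quantile normalization, which gave -0.065 against GMPs. Complex medians with median-centred arrays were, for WT GMPs against CMPs, -0.022 (I), 0.172 (III), 0.043 (IV) and -0.021 (V), for WT Lin- cells against CMPs -0.220 (I), -0.273 (III), -0.030 (IV) and 0.073 (V), and for complex IV by genotype 0.002 in CMPs and -0.066 in GMPs. With changed membership, complex III was -0.549 for WT Lin- cells against GMPs, and complex IV was -0.062 by genotype in Lin- cells, -0.047 for WT GMPs against CMPs, -0.295 for WT Lin- cells against CMPs and -0.185 against GMPs (-0.032 with Ndufa4 counted there). The mitochondrially encoded genes lower in Rptor GMPs numbered 1 with only the populations compared, and the assembly factors 18 with array weights. Leaving out 1 array gave 1 to 3 calls in Rptor CMPs (median -0.023 to 0.039), 0 to 5 in Rptor GMPs (-0.089 to -0.041) and 4 to 8 in Rptor Lin- cells (-0.087 to -0.050). Interaction counts were then 1 (GMPs and CMPs; -0.101 to -0.030), 0 to 2 (Lin- cells and CMPs; -0.105 to -0.040) and 1 to 2 (Lin- cells and GMPs; -0.050 to 0.028). WT counts were 2 to 8 for GMPs against CMPs (-0.074 to -0.038), 45 to 53 for Lin- cells against CMPs (-0.279 to -0.202) and 44 to 49 against GMPs (-0.137 to -0.084). The list counts were 1 to 6 mitochondrially encoded genes and 5 to 7 assembly factors. Same-numbered Rptor and WT arrays of a population did not deviate together from their group means (correlations of -0.344 to 0.119). Same-numbered arrays of different populations were not compared, so pairing across populations was not tested. With the number as a replicate block, Uqcrc2 in GMPs lost its call (0.27, adjusted p = 0.0543, limma). Uqcrb lost its call between WT GMPs and CMPs (-0.45, adjusted p = 0.0637), and Cox6b2 in Lin- cells gained one (0.37, adjusted p = 0.0372). Between WT Lin- cells and CMPs 5 members lost their calls, as did 5 between WT Lin- cells and GMPs. The cause of these changes was not tested.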
